A study of Caenorhabditis elegans with 6 samples.

Results

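Muscle acetylcholine receptor genes of the nematode Caenorhabditis elegans were followed as a group of 10 genes named by symbol: the levamisole receptor subunits unc-29, unc-38, unc-63, lev-1 and lev-8, the nicotine receptor subunit acr-16, the clustering gene lev-10, and the assembly and trafficking genes ric-3, unc-50 and unc-74. Of the 10, 9 had a row in a table of 46932 genes, and 8 of these had enough counts to be tested among 11968 genes. The symbol unc-74 matched no gene of the annotation used, and that gene is not analysed here. RNA was counted in 6 libraries from sorted somatic cells of young adult males, 3 wild type and 3 csr-1a mutant, and the series asks how loss of csr-1a, an isoform of an Argonaute protein that binds small RNAs, alters the tail of the offspring of heat-shocked parents. The wild-type strain was gfp::sl2::2xflag::aid::csr-1a, and the mutant strain was gfp::sl2::2xflag::aid::csr-1a_delta. Shared by the groups were him-8, the extrachromosomal arrays Ex(pnc-1p::wrmScarlet) and Ex(pcs-1p::wrmScarlet), and parental heat stress at late L4. Cells named vir & rep in the labels (rectal valve and rectal gland) were isolated by fluorescence-activated sorting, 5000 per library, with no purity stated. The labels do not say whether libraries came from separate cultures. All tests take the library as the replicate, so p-values may not speak for independent cultures.

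At the worm's neuromuscular junction, acetylcholine released by motor neurons opens cation channels on body wall muscle. One class, the levamisole receptor, is built from the products of unc-29, unc-38, unc-63, lev-1 and lev-8, while the other is a homomer of ACR-16. The levamisole receptor needs helpers in the endoplasmic reticulum and Golgi to fold and reach the surface, and a scaffold of LEV-10, LEV-9 and OIG-4 to gather at the synapse. Several of these genes, among them unc-29, unc-63 and ric-3, are also used by neurons, and unc-50 is used by many cells.

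Total counts per library ran from 17748698 to 47890863, and 74.4% to 78.4% of them were ribosomal RNA. Levels below are normalised read counts per 1000000 (CPM), with trimmed mean of M values scaling on totals that include ribosomal RNA. A single count was worth 0.0210 to 0.0591 CPM, so genes under about 1 CPM rest on few reads. Wild-type replicate 3 and mutant replicate 2 had the fewest genes detected, 14012 and 12757, against 18071 to 19083 in the others. The mutated gene csr-1 was at 185, 209.5 and 267 CPM in wild-type replicates 1 to 3 against 185, 157 and 153 CPM in mutant replicates 1 to 3, and its log2 fold change of -0.42 ± 0.17 (SE) missed the threshold (adjusted p = 0.213). Counts per gene do not separate its isoforms, so this is no check of the genotype. Of all genes tested, 5.59% were called by edgeR's quasi-likelihood test at an adjusted p under 0.05, 4.04% higher and 1.55% lower in the mutant.

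The sorted cells carried markers of several tissues. The 7 rectal and reporter genes summed to at most 27.5 CPM per library in wild type and to 45.5 to 73.6 CPM in mutant libraries. Of the 5 tested, 2 rose and 0 fell: pnc-1 and pcs-1, whose promoters drive the reporters (log2 fold changes 1.68 ± 0.30 and 1.19 ± 0.27, adjusted p = 0.00618 and 0.0259). The call of pnc-1 was lost without the pair of libraries with fewest genes (adjusted p = 0.0738), and that of pcs-1 on leaving out replicate 1 or 2 of wild type (adjusted p = 0.0964 and 0.0759) or replicate 1 of the mutant (adjusted p = 0.0691). The 6 coelomocyte markers, of scavenger cells in the body cavity, summed to 3897 to 4492 CPM in wild type against 1815 to 2547 CPM in mutant libraries, and all 6 fell. Without the pair of libraries with fewest genes cup-4, unc-122, lgc-26 and cubn-1 lost their calls (adjusted p = 0.0635, 0.0502, 0.06 and 0.0618), and cup-4 and unc-122 did so on leaving out replicate 1 (adjusted p = 0.0704 and 0.0674) or replicate 3 of wild type (adjusted p = 0.0552 and 0.0547). The 23 body wall muscle markers are mostly structural genes and include none of the receptor genes. Also among them are the transcription factor gene hlh-1 and the calsequestrin gene csq-1. Together the 23 summed to 762 to 1006 CPM in wild type and to 23068, 9749 and 10222 CPM in mutant replicates 1, 2 and 3. All 23 rose, with a median log2 fold change of 3.94, and none was at 0 in either group. Neuronal markers summed to 554 to 849 CPM in wild type against 485 to 572 CPM in mutant libraries, with 1 of 15 lower, the neuronal exchange factor gene rgef-1 (log2 fold change -0.99 ± 0.16, adjusted p = 0.00346), and 0 higher. Their median log2 fold change was -0.36, and DESeq2 called 2 of the 15, where it called 1054 of all 11968 tested genes. In 6 of the 15 all mutant libraries lay below all wild-type libraries, a pattern seen in 12.2% of tested genes. In libraries of many cells, more cells of a type and more RNA per cell cannot be told apart. What part the muscle content has in the receptor, accessory and other gene values below was not tested, beyond the ratios to muscle genes given further on.

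Of the 8 receptor genes tested, unc-29, lev-1 and lev-8 rose in the mutant and 0 fell, where 4.04% of all tested genes rose. These 3 genes encode channel subunits, as do unc-63, unc-38 and acr-16, which were not called. The calls therefore do not part channel subunits from the other receptor genes. Genes for assembly and trafficking, ric-3 and unc-50, and the subunit gene unc-63 overlapped between the groups, and unc-38 and acr-16 did not pass the test. In 4 of the 8, unc-29, lev-1, lev-8 and acr-16, all 3 mutant libraries lay above all 3 wild-type libraries, a pattern seen in 12.6% of tested genes, where 24.8% did not overlap in one direction or the other. Since unc-29 and lev-1 exceeded the low-count limit in only 1 wild-type library each and in all 3 mutant libraries, they entered the test through the group in which they were high. For acr-16 the limit was exceeded in 2 wild-type and all 3 mutant libraries, so it too needed mutant libraries to be tested.

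The gene unc-29 (WBGene00006765, WBcel235 chromosome I, 8897632 to 8901435, minus strand) encodes a non-alpha subunit without which levamisole receptors do not function. Reads numbered 14, 1 and 0 in wild-type replicates 1 to 3, against 341, 190 and 97 in mutant replicates 1 to 3. As CPM these came to 0.577, 0.0511 and 0 for wild type, against 7.17, 7.52 and 4.30 for the mutant. The groups did not overlap, nearly all wild-type reads came from replicate 1, and the count of 0 in replicate 3 allows a level of up to 0.177 CPM. Its log2 fold change was 4.76 ± 0.83 (SE; 95% interval 2.93 to 6.59, adjusted p = 0.00598). Without wild-type replicate 1 the log2 fold change was 7.67 (adjusted p = 0.000387), without both libraries of fewest genes it was 4.15 (adjusted p = 0.027), and limma-voom gave 5.85 without a call (adjusted p = 0.105).

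The partner gene lev-1 (WBGene00002974, chromosome IV, 13174157 to 13179395, minus strand) encodes a second non-alpha subunit. Reads numbered 19, 3 and 0 for wild type against 534, 150 and 113 for the mutant. These correspond to 0.783, 0.153 and 0 CPM against 11.2, 5.94 and 5.01 CPM, with mutant replicate 1 the highest. No mutant library overlapped the wild-type range, and the log2 fold change was 4.44 ± 0.80 (SE; 95% interval 2.67 to 6.22, adjusted p = 0.00748). The log2 value was 6.48 without wild-type replicate 1 (adjusted p = 0.000885), and limma-voom gave 5.31 without a call (adjusted p = 0.183).

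The alpha subunit gene lev-8 (WBGene00002975, chromosome X, 11560915 to 11563707, plus strand) had 38, 14 and 8 reads in wild type against 388, 130 and 82 reads in mutant libraries. Its levels were 1.57, 0.715 and 0.473 CPM against 8.15, 5.15 and 3.64 CPM. The lowest mutant library stood above the highest wild-type library, and replicate 1 was the highest in each group. The log2 fold change of 2.59 ± 0.54 (SE; 95% interval 1.41 to 3.77) passed the test (adjusted p = 0.0158). The call was lost on leaving out replicate 2 or 3 of wild type (adjusted p = 0.0579 and 0.0565) or replicate 1 of the mutant (adjusted p = 0.0927), on leaving out the pair of libraries with fewest genes (adjusted p = 0.0631) and by limma-voom (adjusted p = 0.0884), and without wild-type replicate 1 the log2 value was 3.28. Of its exonic bases 4.79% are shared with the antisense gene linc-33, whose reads cannot be told apart without a stated strand setting.

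A different pattern was seen for unc-38 (WBGene00006774, chromosome I, 4897620 to 4900974, minus strand), an alpha subunit. Reads numbered 8, 10 and 12 for wild type against 164, 4 and 54 for the mutant. The corresponding levels were 0.330, 0.511 and 0.709 CPM against 3.45, 0.158 and 2.40 CPM. Mutant replicate 2 fell below every wild-type library while the other 2 mutant libraries lay above them. The log2 fold change of 1.96 ± 0.97 (SE; 95% interval -0.18 to 4.10) missed the threshold (adjusted p = 0.354). On leaving out mutant replicate 2 it was 2.57 and passed (adjusted p = 0.0349), on leaving out mutant replicate 2 and wild-type replicate 3 it was 2.85 and passed (adjusted p = 0.0338), and on leaving out mutant replicate 1 it was 1.33.

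The third alpha subunit gene, unc-63 (WBGene00006797, chromosome I, 5141673 to 5149226, plus strand), was the most abundant subunit gene in wild type. Its 202, 124 and 153 wild-type reads and 508, 224 and 161 mutant reads gave 8.32, 6.34 and 9.04 CPM against 10.7, 8.87 and 7.14 CPM. The groups overlapped, and the log2 fold change was 0.17 ± 0.28 (SE; adjusted p = 0.847). Its 95% interval of -0.43 to 0.78 does not reach the intervals of unc-29, lev-1 or lev-8, which begin at 2.93, 2.67 and 1.41; the difference between genes was not itself tested.

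For the nicotine receptor, acr-16 (WBGene00000055, chromosome V, 8561216 to 8564345, plus strand) had 12, 12 and 3 reads in wild type against 203, 38 and 33 reads in mutant libraries. Its wild-type levels of 0.494, 0.613 and 0.177 CPM lay below its mutant levels of 4.27, 1.50 and 1.46 CPM, with mutant replicate 1 well above the other mutant libraries. The log2 fold change of 2.48 ± 0.76 (SE; 95% interval 0.80 to 4.15) missed the threshold (adjusted p = 0.0939), while DESeq2 called it (adjusted p = 0.0207); without mutant replicate 1 it was 1.77 (adjusted p = 0.527). Its exons share 2.36% of their bases with a gene on the other strand, F25G6.8.

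The levels of the helper genes overlapped between the groups. RIC-3 is a chaperone of the endoplasmic reticulum for acetylcholine receptors, and ric-3 (WBGene00004363, chromosome IV, 7818251 to 7821195, plus strand) stood at 7.33, 6.03 and 5.50 CPM in wild type against 5.23, 5.78 and 7.41 CPM in mutant libraries. UNC-50 is a Golgi protein that routes levamisole receptors to the cell surface, and unc-50 (WBGene00006785, chromosome III, 10314523 to 10318162, minus strand) stood at 9.23, 7.92 and 9.58 CPM against 10.3, 7.25 and 10.9 CPM. The groups overlapped for each gene. Their log2 fold changes were -0.04 ± 0.30 for ric-3 (95% interval -0.69 to 0.61, adjusted p = 0.977) and 0.09 ± 0.26 for unc-50 (95% interval -0.49 to 0.66, adjusted p = 0.931), and the sign for ric-3 turned with library totals alone as the scaling (0.06).

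The clustering gene lev-10 (WBGene00002977, chromosome I, 14390333 to 14400226, plus strand), which encodes a transmembrane protein that gathers levamisole receptors at synapses, was barely counted. Reads numbered 5, 0 and 0 for wild type against 0, 0 and 3 for the mutant, and it was not tested. The gene eat-18, which encodes a small protein needed by pharyngeal acetylcholine receptors, overlaps lev-10 on the same strand. Of the exonic bases of lev-10, 92.0% are shared with eat-18. For eat-18 reads numbered 0, 14 and 0 against 0, 0 and 4. How reads in the shared exons were assigned is not stated, so these counts give no level for lev-10.

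**Figure D1:**
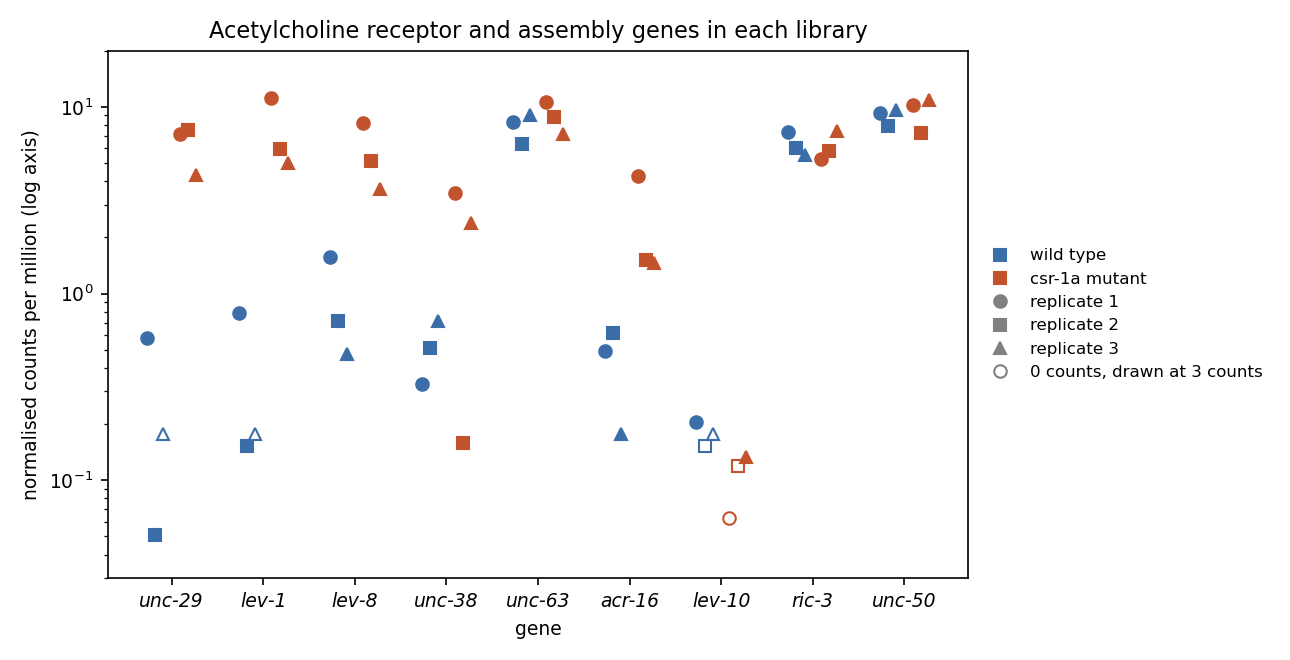
Normalised CPM (log axis) of 9 receptor and assembly genes in each of the 3 wild-type (blue) and 3 csr-1a mutant (red) libraries, one point per library, with the marker shape giving the replicate and open markers standing for a count of 0 drawn at 3 counts. The mutant points of unc-29, lev-1, lev-8 and acr-16 lie above all wild-type points, those of unc-63, ric-3 and unc-50 overlap them, and unc-38 has 1 mutant library at 0.158.

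Per kilobase of merged exons, which allows levels of different genes to be compared, the order of the genes differed between the groups. In wild type unc-50 stood at 6.83 ± 0.670 CPM per kilobase, unc-63 at 4.86 ± 0.863, ric-3 at 3.93 ± 0.591 and lev-8 at 0.530 ± 0.331 (SD, n = 3). Below these came unc-38 at 0.307 ± 0.113, acr-16 at 0.235 ± 0.124, lev-1 at 0.165 ± 0.219 and unc-29 at 0.130 ± 0.198 CPM per kilobase. Neighbours among the last 5 did not differ beyond their spread, nor did unc-63 and ric-3, while the gap between ric-3 and lev-8 was wider than the spread of either.

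In the mutant, unc-50 stood at 7.25 ± 1.49 CPM per kilobase and unc-63 at 5.47 ± 1.09 (SD, n = 3). They were followed by unc-29 at 3.93 ± 1.09, lev-1 at 3.91 ± 1.77, ric-3 at 3.84 ± 0.708 and lev-8 at 3.26 ± 1.33 CPM per kilobase, none of which differed from its neighbour beyond the spread. Lowest were acr-16 at 1.32 ± 0.882 and unc-38 at 1.19 ± 0.999 CPM per kilobase. In this group unc-29, lev-1 and lev-8 thus lay at about the level of ric-3, a gene that had stood far above them in wild type.

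Shares of the 5 levamisole receptor subunit genes were taken within each library, so that scaling between libraries plays no part. Since unc-63 and unc-29 are also used by neurons, whose markers were present in these libraries, the shares describe the transcripts in each library and not the make-up of a receptor. In all, the 5 genes summed to 11.6, 7.77 and 10.2 CPM in wild type against 40.7, 27.6 and 22.5 CPM in mutant libraries, while unc-63 itself averaged 7.90 ± 1.40 against 8.90 ± 1.77 CPM (SD, n = 3), so its smaller share follows from the rise of the other genes. The share of unc-63 in the summed counts per kilobase of the 5 levamisole receptor subunits was 73.2%, 82.4% and 88.9% in wild-type replicates 1 to 3 against 27.7%, 33.4% and 33.2% in mutant replicates 1 to 3. For unc-29 it was 5.11%, 0.67% and 0% against 18.7%, 28.6% and 20.1%. The share of lev-1 went from 2.54% ± 3.05 to 21.4% ± 3.15 (SD, n = 3), and that of lev-8 was 12.9%, 8.74% and 4.36% in wild type against 19.9%, 18.2% and 15.9%. The groups did not overlap for these 4 genes, and each had a two-sided exact permutation p = 0.1, the smallest that 3 against 3 libraries allow, so none could pass 0.05 (0.125 after Benjamini-Hochberg adjustment over the 5 genes). For unc-38 the share was 5.32% ± 2.19 in wild type against 6.66% ± 5.38 (SD, n = 3), with overlapping groups (exact permutation p = 0.8). These shares were compared after the levels had been seen and rest on the same counts, so they are no separate support.

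**Figure D2:**
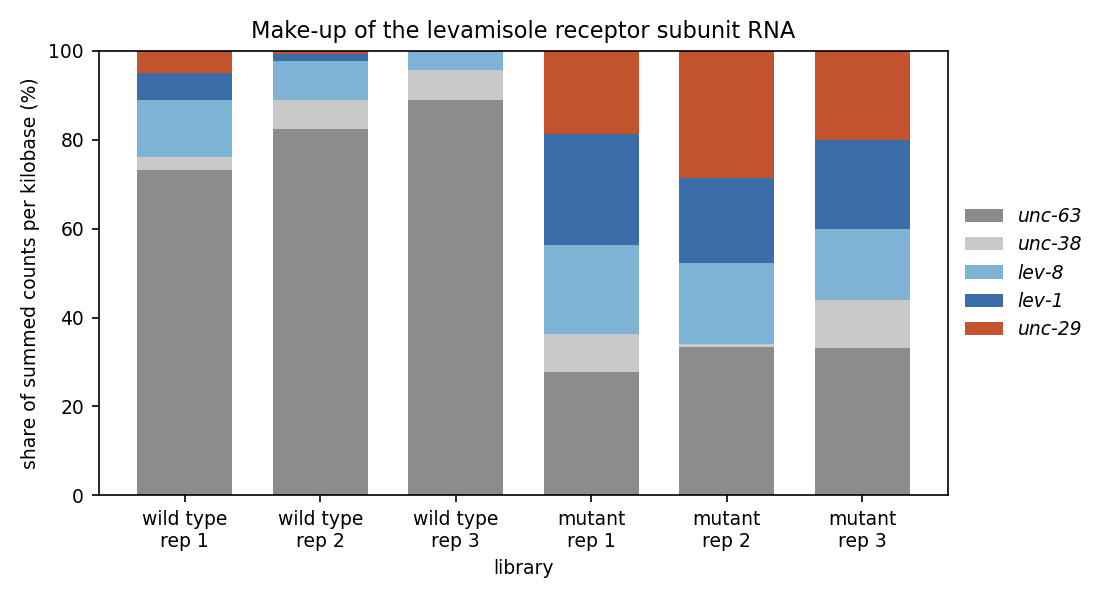
Share (%) of each of the 5 levamisole receptor subunit genes in their summed counts per kilobase of exon, one stacked bar per library. The gene unc-63 makes up 73.2% to 88.9% of the wild-type bars and 27.7% to 33.4% of the mutant bars, where unc-29, lev-1 and lev-8 fill most of the rest.

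The receptor genes were also set against muscle marker genes, as a gene's counts per 1000 counts of the 23 body wall muscle markers in the same library. Differences between genes in this ratio were not tested, and whether the groups overlapped could turn on a narrow margin. For unc-29 it was 0.573, 0.0670 and 0 in wild type against 0.311, 0.772 and 0.421 in mutant libraries, and for lev-1 it was 0.778, 0.201 and 0 against 0.486, 0.609 and 0.490. These ranges overlapped (exact permutation p = 0.3 and 0.5), as did those of lev-8, at 1.56, 0.938 and 0.514 against 0.353, 0.528 and 0.356 (exact permutation p = 0.2). An overlap does not show equal ratios, and the mean of lev-8 was 2.43-fold lower in the mutant. On leaving out single libraries, the log2 ratio of mutant to wild type ranged from 0.65 to 3.90 for unc-29 and from 0.11 to 2.39 for lev-1, in each case highest without wild-type replicate 1.

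By the same measure unc-63 went from 8.80 ± 0.888 to 0.690 ± 0.224, ric-3 from 7.06 ± 0.988 to 0.515 ± 0.258 and unc-50 from 9.99 ± 0.707 to 0.750 ± 0.309 counts per 1000 muscle counts (SD, n = 3). These were 12.8-fold, 13.7-fold and 13.3-fold lower in the mutant. With CPM levels that overlapped between the groups and muscle markers that rose by a median of 3.94 on the log2 scale, these ratios restate the rise of the denominator and are no separate result. Smaller differences without overlap were found for unc-38, from 0.590 ± 0.232 to 0.133 ± 0.110, and for acr-16, from 0.496 ± 0.306 to 0.161 ± 0.0216, whose nearest libraries stood at 0.193 in wild type and 0.185 in the mutant. Each of these 5 had an exact permutation p = 0.1, the smallest possible here, and of 0.24 after Benjamini-Hochberg adjustment over the 12 ratios computed.

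**Figure D3:**
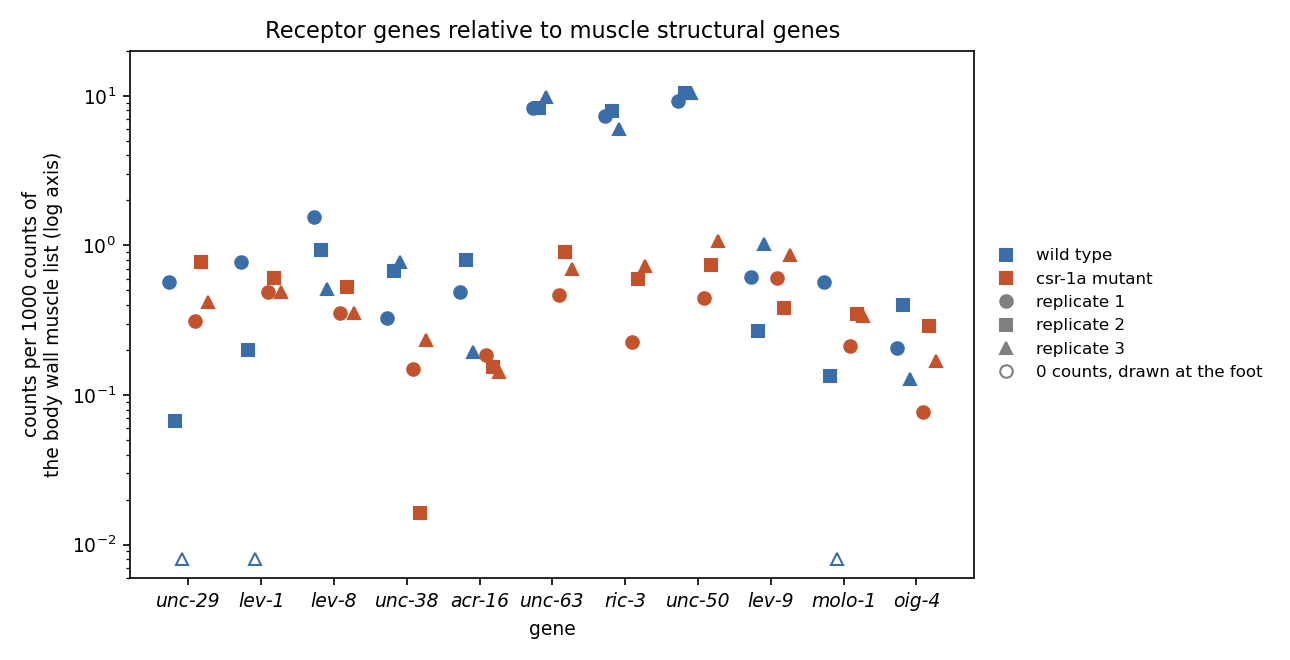
Counts of each gene per 1000 counts of the 23 body wall muscle markers in the same library (log axis), with wild type in blue, csr-1a mutant in red, marker shapes for replicates and open markers at the foot for a count of 0. Points of unc-29, lev-1, lev-8, lev-9, molo-1 and oig-4 overlap between the groups, those of acr-16 are parted only by 0.193 against 0.185, and those of unc-63, ric-3 and unc-50 lie at 5.97 or above in wild type and at 1.06 or below in the mutant.

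Other genes that act on these receptors rose in part. Of 13 tested members of a list of 14 accessory genes, 6 rose and 0 fell, against 4.04% and 1.55% of all tested genes. The list median was a log2 fold change of 1.19, against 0.01 for all genes tested. The secreted scaffold gene lev-9 was counted 15, 4 and 16 times in wild type and 661, 94 and 200 times in the mutant, levels of 0.618, 0.204 and 0.946 CPM against 13.9, 3.72 and 8.87 CPM. It exceeded the low-count limit in 2 wild-type and all 3 mutant libraries, so it too needed mutant libraries to be tested. It rose by a log2 fold change of 3.91 ± 0.62 (SE; adjusted p = 0.00314), or 4.78 without the pair of libraries with fewest genes, and limma-voom did not call it (adjusted p = 0.148).

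Named after their values were seen, the receptor auxiliary gene molo-1 and the scaffold gene oig-4 also rose, by log2 fold changes of 4.0 ± 0.87 and 3.29 ± 0.79 (SE; adjusted p = 0.0217 and 0.0334). At the low-count limit molo-1 passed in 1 wild-type library and oig-4 in 0, and each passed in all 3 mutant libraries, so they entered the test through the group in which they were high. Their counts were 14, 2 and 0 against 234, 86 and 78 for molo-1, and 5, 6 and 2 against 85, 71 and 39 for oig-4. The call of molo-1 was lost with limma-voom (adjusted p = 0.148) and on leaving out replicate 2 of wild type (adjusted p = 0.064) or replicate 1 or 3 of the mutant (adjusted p = 0.0916 and 0.0698), and without wild-type replicate 1 its log2 fold change was 6.11. That of oig-4 was lost whichever single library was left out (adjusted p = 0.0563 to 0.132), without the pair of libraries with fewest genes (adjusted p = 0.0621), with the replicate block (adjusted p = 0.0867) and with limma-voom (adjusted p = 0.243). Per 1000 muscle counts, lev-9 stood at 0.637 ± 0.380 in wild type against 0.617 ± 0.243 in mutant libraries, and for lev-9, molo-1 and oig-4 alike the groups overlapped (SD, n = 3; exact permutation p = 0.9, 0.9 and 0.6).

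The other 3 accessory genes that rose have been linked to receptor placement at the muscle synapse. The Ror receptor kinase gene cam-1, which acts in the delivery of ACR-16 to synapses, averaged 6.45 ± 1.04 CPM in wild type against 18.3 ± 6.58 (SD, n = 3), with a log2 difference of 1.51 ± 0.30 (SE; adjusted p = 0.0143). The Dishevelled gene dsh-1, of the same Wnt pathway, averaged 12.3 ± 2.27 against 28.1 ± 8.09 CPM (log2 difference 1.19 ± 0.25, adjusted p = 0.0188), and the Ras suppressor gene rsu-1 8.96 ± 1.97 against 21.7 ± 6.15 CPM (log2 difference 1.28 ± 0.27, adjusted p = 0.0197). Leaving out wild-type replicate 2 ended all 3 calls (adjusted p = 0.0529, 0.0702 and 0.0695 for cam-1, dsh-1 and rsu-1), as did leaving out the pair of libraries with fewest genes (adjusted p = 0.0741, 0.115 and 0.0768). Leaving out mutant replicate 1 ended those of cam-1 and rsu-1 (adjusted p = 0.0528 and 0.0636), and that of dsh-1 ended on leaving out replicate 3 of wild type (adjusted p = 0.0728) or replicate 2 of the mutant (adjusted p = 0.053).

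**Figure D4:**
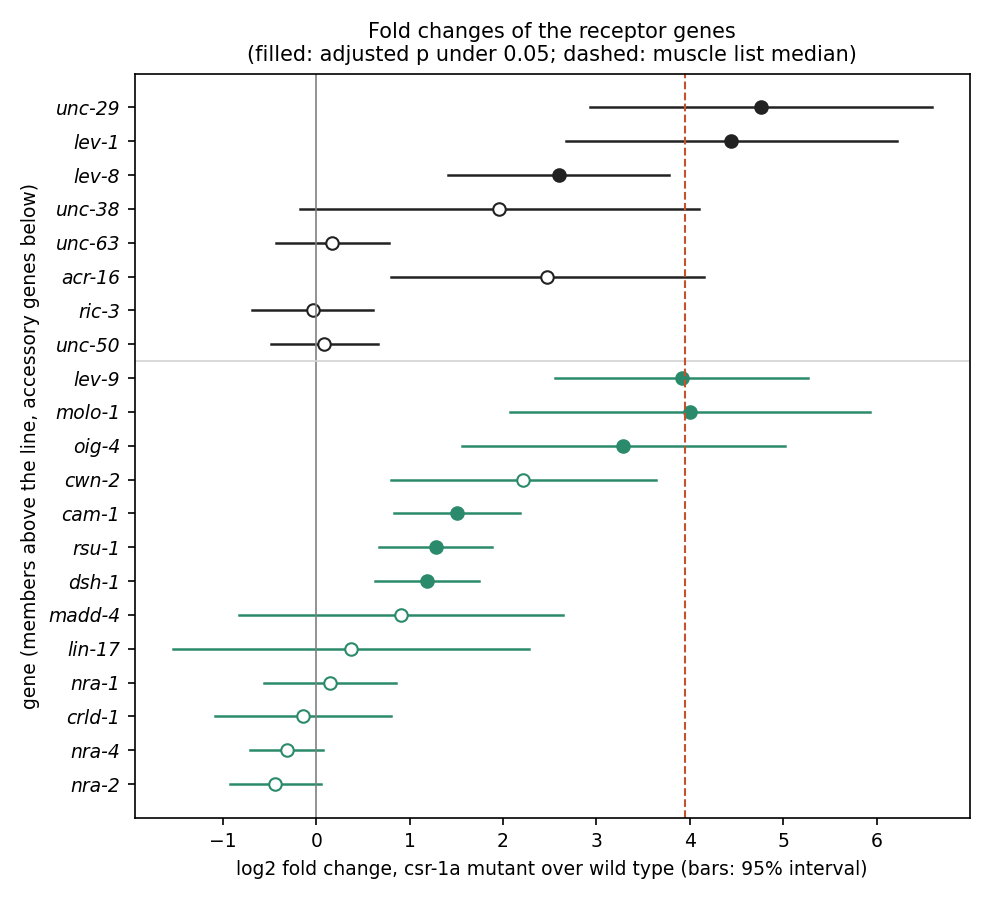
Log2 fold changes (csr-1a mutant over wild type) of the 8 tested receptor and assembly genes and of 13 tested accessory genes, with bars for the 95% interval and filled points for an adjusted p under 0.05; the dashed line is the median of the 23 muscle markers, 3.94. The intervals of unc-29, lev-1, unc-38, acr-16, lev-9, molo-1 and oig-4 include that line, that of unc-38 also includes 0, and those of unc-63, ric-3 and unc-50 include 0 and end at 0.78 or below.

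Among the other nicotinic receptor subunit genes, 23 of 24 matched a gene, 11 had enough counts, and none passed edgeR's test. At an unadjusted p under 0.05 stood 4 of them (2018 of all 11968 tested genes). DESeq2 called 3 (1054 of all) and limma-voom 0 (572 of all), and in 5 the mutant libraries all lay above the wild-type libraries (12.6% of all tested genes). Among these 5, wild-type reads numbered 1, 1 and 8 for acr-7, 2, 3 and 0 for acr-19, and 3, 0 and 0 for eat-2. These genes entered the test through the group in which they were high, so their lack of overlap is no separate support. The smallest p was that of acr-8, an alpha subunit closely related to lev-8, at 0.618, 0.460 and 0.532 CPM against 2.02, 3.45 and 2.09 CPM. Its log2 fold change was 2.21 ± 0.61 (SE; adjusted p = 0.0623, from 0.00897 with DESeq2 to 0.236 over the alternatives run).

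Among genes for the inhibitory GABA receptor of muscle and its scaffold, 4 of 6 rose and 0 fell. Of all tested genes 4.04% rose and 1.55% fell. The list median was 2.06 on the log2 scale, against 0.01 for all genes tested. The neuroligin gene nlg-1 averaged 3.01 ± 0.529 CPM in wild type against 40.5 ± 23.9 (log2 fold change 3.75 ± 0.39, adjusted p = 0.00026). The scaffold genes lin-2 and frm-3 rose by 2.97 ± 0.35 and 2.28 ± 0.26 (adjusted p = 0.000556 and 0.000504), and the receptor gene unc-49 by 1.83 ± 0.43 (adjusted p = 0.0315). The calls of nlg-1, lin-2 and frm-3 held in every alternative run, but unc-49 lost its call with limma-voom (adjusted p = 0.0876), with the replicate block (adjusted p = 0.053) and without any single library other than mutant replicate 2 (adjusted p = 0.0755 to 0.128). Without the pair of libraries with fewest genes its log2 value was 2.44, and without mutant replicate 1 that of nlg-1 was 3.16.

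Over all genes tested, 4.04% rose and 1.55% fell, with a median log2 fold change of 0.01. Of 7 genes that make, carry or break down acetylcholine, 1 rose and 0 fell, with a median log2 fold change of 0.91. It was ace-1, the acetylcholinesterase gene of muscle, at 1.65, 2.25 and 1.54 CPM in wild type against 20.9, 11.9 and 12.95 CPM (log2 fold change 3.07 ± 0.33, adjusted p = 0.000312), and its call held in every alternative run. Of 7 muscle calcium channel and release genes, 4 rose and 0 fell, with a median of 1.24. Among these the ryanodine receptor gene unc-68 rose by 2.38 ± 0.27 and the calcium pump gene sca-1 by 2.45 ± 0.29 (adjusted p = 0.000396 and 0.000552). The junctophilin gene jph-1 rose by 1.24 ± 0.25 (adjusted p = 0.0152), although not without wild-type replicate 1 or 2 (adjusted p = 0.0556 and 0.0542). The calsequestrin gene csq-1, also one of the 23 muscle markers, rose by 4.27 ± 0.31 (adjusted p = 9.39e-05).

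The ER membrane complex, which helps insert receptor subunits in the membrane, had 3 tested members of 5 matched. By edgeR 0 passed, 1 stood at an unadjusted p under 0.05 (2018 of all 11968 tested genes), and DESeq2 and limma-voom called 0. The smallest p was that of emc-3, at 23.3 ± 4.75 CPM in wild type against 14.6 ± 1.52 CPM (log2 fold change -0.67 ± 0.21, adjusted p = 0.104). Of 6 tested pharyngeal muscle genes edgeR called 0, and 5 stood at an unadjusted p under 0.05 (2018 of all 11968 tested genes). Among these 5 was eat-2, with 3, 0 and 0 wild-type reads, which needed mutant libraries to be tested. DESeq2 called 1 (1054 of all) and limma-voom 0 (572 of all). The pharyngeal myosin gene myo-2 was at 12.2 ± 5.53 CPM in wild type against 46.1 ± 31.4 CPM (log2 fold change 1.93 ± 0.53, adjusted p = 0.061, from 0.00608 without mutant replicate 3 to 0.55 over the alternatives run), and the list summed to 17.6 to 37.5 CPM and to 149, 111 and 26.3 CPM in mutant replicates 1, 2 and 3.

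Likeness of pattern was taken as Pearson's r of log2(CPM + 1) over the 6 libraries, among 5384 tested genes whose higher group averaged 5 CPM or more. This r does not measure the size of a change. Nearest to unc-29 were svh-5 (r = 0.997), F20D6.10 (r = 0.995) and ztf-22 (r = 0.995). Their log2 fold changes were 1.23, 4.90 and 1.17, against 4.76 for unc-29. Nearest to acr-16 were mrpl-11 (r = 0.998), W10C8.5 (r = 0.995) and yop-1 (r = 0.992). Their log2 fold changes were 0.87, 0.86 and 1.04, against 2.48 for acr-16, and edgeR did not call mrpl-11 or W10C8.5 (adjusted p = 0.221 and 0.208). With 6 libraries that fall in 2 groups, many genes reach a high r, and these values describe the libraries only.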

How the data were processed

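The authors deposited 1 table of raw read counts per gene, with 1 column per library. The tools named, per the submitters' processing notes, are DESeq2, Subread 2.0.0, featureCounts, STAR and fastp 0.20.1, without role or order. No build, annotation or strand setting of the counting is given in the sources used. Symbols, positions and merged exon lengths came from the WBcel235 annotation (Ensembl release 115) by gene identifier, which held 46919 of the 46932 genes. The positions describe WBcel235, not the counted intervals.

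Counts were tested on the whole table with edgeR 4.0.16 in R 4.3.3 (filterByExpr with minimum count 10 and minimum total 15, trimmed mean of M values, glmQLFit with robust=TRUE, group alone), with Benjamini-Hochberg adjustment over all genes tested. Standard errors are the log2 fold change over the square root of F. No 2 libraries of a group agreed within sampling noise (chi-square per degree of freedom at least 6.73). The procedure was tested on simulated counts, with changes smaller than those of unc-29, lev-1 and lev-8. They were also smaller than those of lev-9, molo-1, oig-4 and the muscle markers. Changes of the size seen for these genes were not covered. Single values used scipy 1.17.1's exact permutation test over the libraries. A count of 0 was given an upper limit of 3 counts, for counting error only.

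The genes, lists and tests were chosen with earlier results of these data known. Named are the members, csr-1, up to 4 genes per list with the smallest adjusted p under 0.05 (or the smallest p where none passed), and the 3 genes most like unc-29 and acr-16. In all, 16 alternatives were run on the whole table.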

Additional observations from a re-analysis of the deposited data

How the results depend on the processing

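The 3 receptor genes called, unc-29, lev-1 and lev-8, were the same with relative log expression factors, ribosomal RNA left out, library totals alone, scaling without muscle genes, no low-count filter and the replicate block. DESeq2 added acr-16. With a filter of 5 CPM in 3 libraries, 3 receptor genes were tested (unc-63, ric-3 and unc-50), of which 0 were called by edgeR and 0 had an unadjusted p under 0.05. By limma-voom 0 were called and 3 had an unadjusted p under 0.05, as did 2028 of all 11968 genes tested. Leaving out single libraries gave 2 to 4 called, and without both libraries of fewest genes the 3 called were unc-29, lev-1 and unc-38. Over all genes, 669 were called (484 higher, 185 lower). The count was 1048 (727 and 321) without a low-count filter and 1054 (698 and 356) by DESeq2, and lower genes numbered 89 with library totals alone and 56 without both libraries of fewest genes. Without single libraries the counts were 416 to 697 in all and 39 to 151 lower. Of the called genes 72.3% were higher, 86.6% with library totals alone, which moved the median log2 fold change of all genes to 0.11, 61.4% by limma-voom, and 89.4% without both libraries of fewest genes.

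The log2 fold change of ric-3 turned from -0.04 to 0.064 with library totals alone and to 0.0517 with the stricter filter, and lay between -0.16 and 0.13 without single libraries. On the same scale the ratio to muscle counts, mutant over wild type, ranged without single libraries from -0.41 to 0.48 for lev-9, from -0.99 to 0.10 for oig-4 and from -0.24 to 2.16 for molo-1, so its direction is not fixed. The share of unc-38 differed by -0.71 to 4.38 percentage points. In these 2 measures no other gene changed direction. Lengths by longest transcript equalled the merged exon lengths for every receptor and assembly gene, so that alternative could not change the levels.

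Replicate numbers did not pair the libraries: deviations from group means correlated at 0.0141, -0.0375 and -0.14 between same-numbered libraries, and 0 of 6 libraries correlated best with its own number. With the replicate block 560 genes were called, among them the same 3 receptor genes. Depth limits unc-29, lev-1, unc-38, lev-10 and acr-16, with 0 to 19 counts in each wild-type library. For the rest, 716 of the recomputed values other than these counts were unchanged, 74 lost a call, 8 gained one and 10 changed direction. Unchanged meant the same direction and side of the threshold for fold changes, and the same direction alone for ratios and shares. The 716 also include levels per length, which could not differ.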
